A study of Homo sapiens with 18 samples.

Results

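Transcripts of 37 hypoxia and glycolysis genes were followed in MDA-MB-436, an established human breast cancer line without oestrogen receptor expression. The genes were chosen by symbol from a fixed list, drawn up with earlier results of these data known. All 37 were found in both count tables, among 57120 entries of one and 44267 of the other. The study set cells with SMARCAL1, an enzyme that acts at stalled replication forks, beside cells in which it was knocked out or depleted by siRNA. TruSeq libraries of total RNA held 3 control replicates and 3 of SMARCAL1 knockout clone 1. PLATE-seq, a pooled plate assay of polyadenylated RNA, held 2 replicates each of a control, of knockout clones 1, 2 and 3, of an siRNA control and of siRNA SMARCAL1. All groups were grown in the same serum-supplemented medium at 5% CO2 under one temperature, and no label names a low-oxygen treatment. Each knockout group is 1 clonal line, so a difference from control cannot be told apart from a difference between clones. The labels call the replicates biological without saying what was repeated, so p-values measure the spread between these libraries.

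Cells sense oxygen through prolyl hydroxylases of the EGLN family, which mark the alpha subunits of hypoxia-inducible factor (HIF) for destruction while oxygen is present. When oxygen falls, the HIF alpha subunits HIF1A and EPAS1 (HIF-2 alpha) persist, pair with ARNT and bind promoters and enhancers that hold a core RCGTG sequence. Their targets carry glucose into the cell, run glycolysis, turn pyruvate to lactate and export it, modify collagen, and clear mitochondria, and many of them are active in cancer cells even in normal oxygen.

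The core HIF sequence was looked for as ACGTG and as GCGTG, on both strands, in RefSeq promoters of GRCh38.p14 running from 250 bases before to 50 bases after each start. ACGTG also lies inside the E-box CACGTG. Of the 37 genes, 32 had an entry, and VEGFA, NDRG1, BNIP3L, LOXL2 and SLC2A3 had none. With alternative starts the 32 genes had 55 promoters. ACGTG was in 43.6% of these 55 promoters and in 21.4% of all 35116 promoters of the table, and GCGTG was in 45.5% and 36.5%. Per gene, 19 of 32 held ACGTG, 20 held GCGTG and 3 held neither. Of the genes called below in the TruSeq data 3 had a promoter in the table, and these are printed. They hold different numbers of the core sequence: P4HA2 (chr5:132227042-132227341, minus strand) held none, LOX (chr5:122078210-122078509, minus strand, 1 of 3 starts) held 4 matches of ACGTG, and EPAS1 (chr2:46297157-46297456, plus strand) held 1 match of GCGTG. Capitals mark each match, on either strand.
P4HA2: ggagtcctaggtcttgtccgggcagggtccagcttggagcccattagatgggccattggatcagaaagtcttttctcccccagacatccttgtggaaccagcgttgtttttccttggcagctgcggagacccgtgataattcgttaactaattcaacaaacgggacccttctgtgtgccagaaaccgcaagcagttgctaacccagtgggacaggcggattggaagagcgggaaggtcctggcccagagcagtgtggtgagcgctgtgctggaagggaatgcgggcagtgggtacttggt
LOX: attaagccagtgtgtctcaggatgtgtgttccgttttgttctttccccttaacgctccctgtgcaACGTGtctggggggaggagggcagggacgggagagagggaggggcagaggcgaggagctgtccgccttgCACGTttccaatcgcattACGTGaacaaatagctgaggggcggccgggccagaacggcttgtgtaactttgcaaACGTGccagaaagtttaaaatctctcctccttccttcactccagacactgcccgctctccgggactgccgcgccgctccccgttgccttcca
EPAS1: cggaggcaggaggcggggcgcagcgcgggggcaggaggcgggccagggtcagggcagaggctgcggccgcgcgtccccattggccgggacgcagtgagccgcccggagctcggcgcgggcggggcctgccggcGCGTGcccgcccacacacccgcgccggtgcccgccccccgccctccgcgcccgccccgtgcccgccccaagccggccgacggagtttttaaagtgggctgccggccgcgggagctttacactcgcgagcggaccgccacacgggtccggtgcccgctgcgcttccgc
A match is a description of the letters, and a promoter without one can still be regulated from elsewhere.

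Each TruSeq library held between 10257584 and 19270648 counts, and each PLATE-seq library between 807861 and 3068887. In CPM, the counts scaled to library size, 3 counts were worth 0.156 to 0.292 in the first assay and 0.978 to 3.71 in the second. The TruSeq libraries fell into a set with more features detected (36042 to 39068, control replicates 1 and 2 and clone 1 replicate 1) and a set with fewer (28621 to 30653, control replicate 3 and clone 1 replicates 2 and 3). SMARCAL1 itself was at 13.9, 14.0 and 16.1 CPM in the TruSeq control and at 13.3, 14.7 and 14.0 CPM in the libraries labelled clone 1. In PLATE-seq it had 0 and 3 counts in the control, 3 to 44 in the clones, 7 and 8 in the siRNA control and 0 in both siRNA SMARCAL1 libraries. Transcript counts were thus not lower in the libraries labelled knockout, no label says how the gene was disrupted, and the clone names below are those of the labels. Basal and mesenchymal markers of the line (7 genes) summed to 2016 to 2290 CPM in the TruSeq control and 2026 to 2316 CPM in clone 1. Of 5 tested, 3 rose in clone 1: KRT17 from 12.99 to 44.6 CPM (log2 1.78, edgeR adjusted p = 0.000177), CAV1 from 307 to 422 CPM (0.46, adjusted p = 0.00643) and EGFR from 134 to 174 CPM (0.37, adjusted p = 0.0197). VIM and CD44 were not called, and KRT5 and KRT14 averaged under 1 CPM in both TruSeq groups. Of all 17371 genes tested, 3.96% were called higher in edgeR. Luminal and receptor markers (8 genes, 5 tested, 0 called in edgeR, 2 at an unadjusted p under 0.05) summed to 1308 to 1738 CPM and 1121 to 1449 CPM, with ESR1, PGR and GATA3 under 1 CPM in TruSeq. KRT8 averaged 740 CPM in the TruSeq control and 619 CPM in clone 1, and KRT18 718 and 663 CPM. ERBB2 averaged 41.2 and 50.6 CPM, EPCAM 3.66 and 2.19 CPM and FOXA1 2.98 and 2.28 CPM. In PLATE-seq ESR1 and PGR had 0 counts in all 12 libraries, and KRT5 averaged 23.4 CPM in the control and 11.5 CPM in clone 1. There CAV1 averaged 302 and 318 CPM (log2 0.08), EGFR 236 and 239 CPM (0.02) and KRT17 28.4 and 44.8 CPM (0.65). Of the 6 basal and mesenchymal markers tested in PLATE-seq clone 1, edgeR called 0. Leukocyte markers (7 genes, of which 4 were tested and 0 called in edgeR, 1 at an unadjusted p under 0.05) summed to 32.4 to 36.2 CPM in the TruSeq control and 24.4 to 27.9 CPM in clone 1, with CD3E, TYROBP and LAPTM5 near 0. CD14 averaged 14.1 CPM in control and 7.85 CPM in clone 1, without overlap (log2 -0.85, edgeR adjusted p = 0.11). CD68 averaged 16.9 and 15.2 CPM. Endothelial and fibroblast sums overlapped between the TruSeq groups, while in PLATE-seq some did not. There the fibroblast sum was 45.6 and 7.72 CPM in the siRNA control and 3.40 and 3.95 CPM with siRNA SMARCAL1. The part of these markers in the results below was not tested.

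In the TruSeq libraries labelled clone 1, the collagen hydroxylase P4HA2 and the stress gene NDRG1 rose, and the HIF subunit EPAS1, the collagen crosslinker LOX and the glucose transporter SLC2A3 fell. The other 32 genes, among them HIF1A, VEGFA, SLC2A1 and every glycolytic enzyme of the list, did not pass the test with the group as the only term. Of 37 genes tested, 5 passed an adjusted p of 0.05 in edgeR's quasi-likelihood test (2 higher, 3 lower), where 6.27% of 17371 genes did (3.96% higher, 2.31% lower). The median log2 fold change was -0.01 over the 37 genes and -0.00 over all genes. In 13 of the 37 genes (4 higher, 9 lower) the 3 clone 1 libraries did not overlap the 3 control libraries, as in 26.3% of all genes tested. Each of the 5 calls was lost when some single library was left out, though the signs stayed and such fits hold fewer libraries. Without control replicate 2 none of the 37 was called in edgeR, and the calls over all genes fell from 1089 to 199, with 2570 at an unadjusted p under 0.05. The calls numbered 2, 2 and 1 when control replicate 1, clone 1 replicate 2 and clone 1 replicate 3 were left out in turn. They were P4HA2 and EGLN3, then P4HA2 and NDRG1, then ALDOC, of which EGLN3 and ALDOC were not among the 5.

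**Figure D1:**
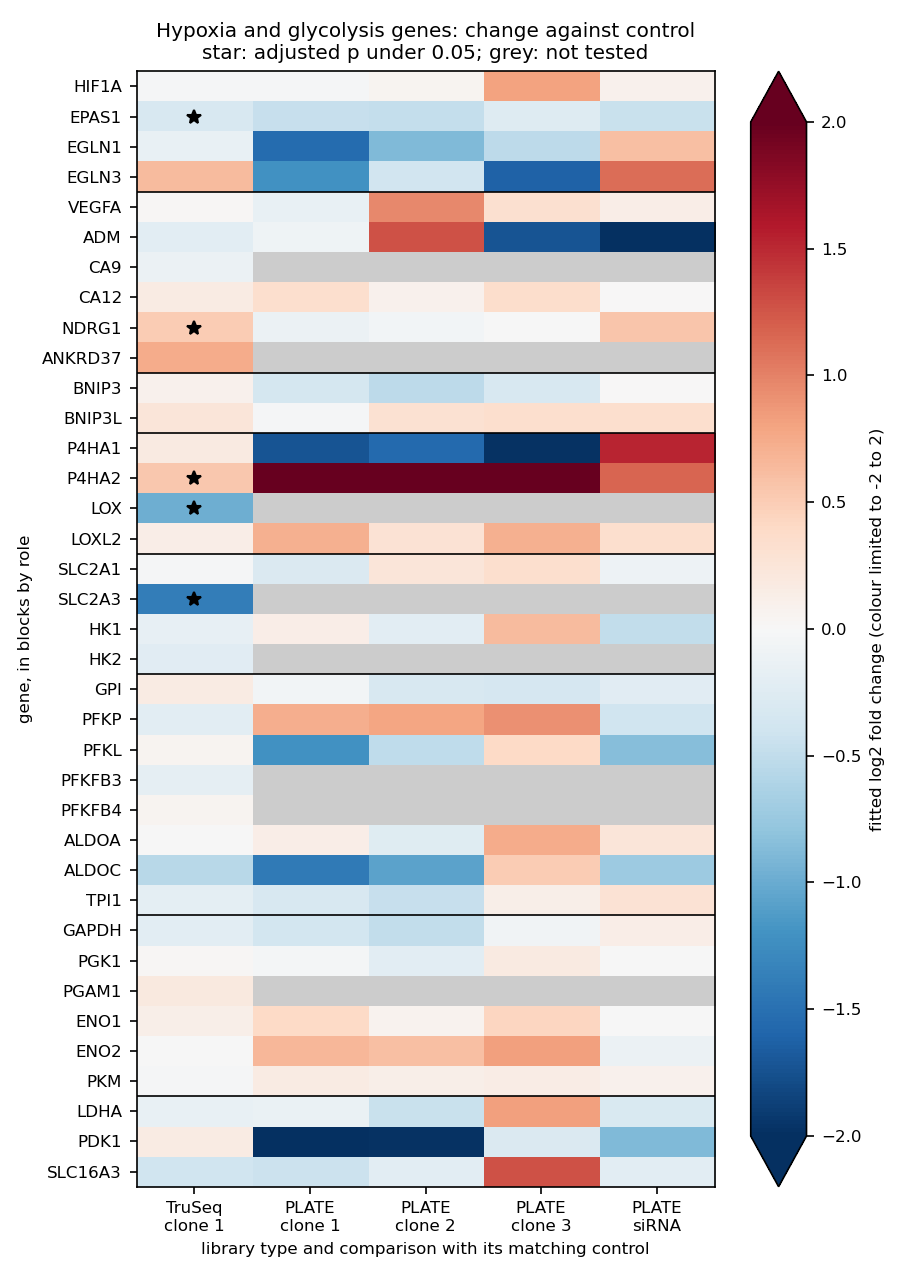
Fitted log2 fold change against the matching control for the 37 genes (rows, in blocks by role) in 5 comparisons (columns), with colour limited to -2 to 2. Stars stand in the TruSeq column alone, at EPAS1, NDRG1, P4HA2, LOX and SLC2A3, and grey cells are genes that were not tested in PLATE-seq.

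Among the oxygen sensors, EPAS1 (chromosome 2, 46293667 to 46386703, plus strand, GRCh38) was at 177, 169 and 183 CPM in the TruSeq control and at 131, 150 and 142 CPM in clone 1. All 3 clone 1 values lay below all 3 control values, a fall of 0.33 on the log2 scale (SE 0.072, edgeR adjusted p = 0.0344). Leaving out any single library ended this call, with adjusted p from 0.0711 to 0.15 and log2 changes from -0.37 to -0.27, and so did testing without the low-count filter (adjusted p = 0.108). HIF1A, the other alpha subunit, was at 455 to 527 CPM in control and 454 to 520 CPM in clone 1, with a log2 difference of -0.02 (95% interval -0.21 to 0.17). Per length of exon, HIF1A made up 77.9% to 80.8% of the summed HIF1A and EPAS1 level in control and 81.1% to 84.9% in clone 1.

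EGLN3, a prolyl hydroxylase that is itself a HIF target, was at 9.64, 6.70 and 6.99 CPM in control and 11.0, 11.7 and 13.2 CPM in clone 1. The groups did not overlap, but the log2 difference of 0.63 (SE 0.164) missed the threshold in edgeR at an adjusted p of 0.058. It passed in DESeq2 (adjusted p = 0.035), without the low-count filter (0.00444) and without control replicate 1 (0.0358). Over the libraries left out in turn, its edgeR adjusted p ran from 0.0358 to 0.225. EGLN1, the main oxygen-sensing hydroxylase, was at 125, 125 and 133 CPM in control and 110, 116 and 119 CPM in clone 1 (log2 difference -0.15, SE 0.065, edgeR adjusted p = 0.242). EGLN3 was 4.95% to 7.06% of the per-length sum of both hydroxylases in control and 9.01% to 9.91% in clone 1.

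Of the secreted, pH and stress targets, only NDRG1 passed. NDRG1 (chromosome 8, 133237171 to 133302022, minus strand), a stress-responsive cytoplasmic protein induced by hypoxia, was at 31.9, 33.5 and 31.1 CPM in control and 45.9, 41.0 and 50.8 CPM in clone 1. The groups were well apart, and the rise was 0.51 on the log2 scale (SE 0.096, edgeR adjusted p = 0.0175). Without control replicate 1, control replicate 2 or clone 1 replicate 3 the adjusted p was 0.0655, 0.0875 and 0.0856. VEGFA, the angiogenic growth factor, lay at 37.3 to 46.6 CPM in control and 40.2 to 47.7 CPM in clone 1, a log2 difference of 0.02 (95% interval -0.22 to 0.26). ADM, the vasodilator peptide adrenomedullin, lay at 96.4 to 115 CPM and 86.2 to 100 CPM, and these ranges overlapped. The carbonic anhydrases CA9 and CA12, which set pH at the cell surface, were low in all 6 libraries, CA9 at 1.16 to 2.50 CPM and CA12 at 3.42 to 5.96 CPM, and ANKRD37, a small ankyrin-repeat HIF target, had 1 to 19 counts.

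Neither mitophagy receptor passed in edgeR or DESeq2 with the group as the only term, nor had an unadjusted p under 0.05. BNIP3, which recruits the autophagy machinery to mitochondria, was at 205 to 221 CPM in control and 222 to 233 CPM in clone 1. It has 39 pseudogenes named after it, so its counts depend on how reads with several matches were treated. BNIP3L, a relative of BNIP3, was at 38.5 to 40.5 CPM and 38.4 to 54.8 CPM, with the highest value in clone 1 replicate 1.

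Of the 4 genes of collagen modification, P4HA2 rose, LOX fell and P4HA1 and LOXL2 did not pass. P4HA2 (chromosome 5, 132191838 to 132295315, minus strand), a catalytic subunit of the collagen prolyl 4-hydroxylase, was at 31.1, 31.2 and 33.4 CPM in control and 47.3, 43.3 and 49.0 CPM in clone 1. Each clone 1 library was above each control library, and the rise was 0.54 on the log2 scale (SE 0.081, edgeR adjusted p = 0.00757), the smallest adjusted p of the 37 genes. Without control replicate 2 or clone 1 replicate 3 the adjusted p was 0.0714 and 0.0515. P4HA2-AS1, which overlaps it on the other strand, had 0 counts in all 6 libraries. P4HA1, the sister subunit, was at 94.0 to 105 CPM in control and 104 to 125 CPM in clone 1, and the ranges overlapped. P4HA2 was 9.70% to 11.4% of the per-length sum of both subunits in control and 12.1% to 14.0% in clone 1.

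LOX (chromosome 5, 122063195 to 122078360, minus strand), the lysyl oxidase that crosslinks collagen and elastin, was at 4.69, 4.20 and 3.91 CPM in control and 2.22, 1.97 and 2.32 CPM in clone 1. The clone 1 libraries held 24 to 35 counts of it and the control libraries 52 to 71. It fell by 0.97 on the log2 scale (SE 0.198, edgeR adjusted p = 0.0246). The call was lost without control replicate 1 (0.0842), control replicate 2 (0.101), clone 1 replicate 2 (0.105) or clone 1 replicate 3 (0.0889). SRFBP1, whose exons overlap LOX on the other strand, had 265 to 462 counts and a log2 difference of -0.14 (adjusted p = 0.381); reads of both genes cannot be told apart without the strand setting of the counting. LOXL2, a related crosslinking enzyme expressed far higher, was at 140 to 171 CPM in control and 151 to 182 CPM in clone 1. LOX was 2.30% to 3.33% of the per-length sum of LOX and LOXL2 in control and 1.1% to 1.49% in clone 1.

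**Figure D2:**
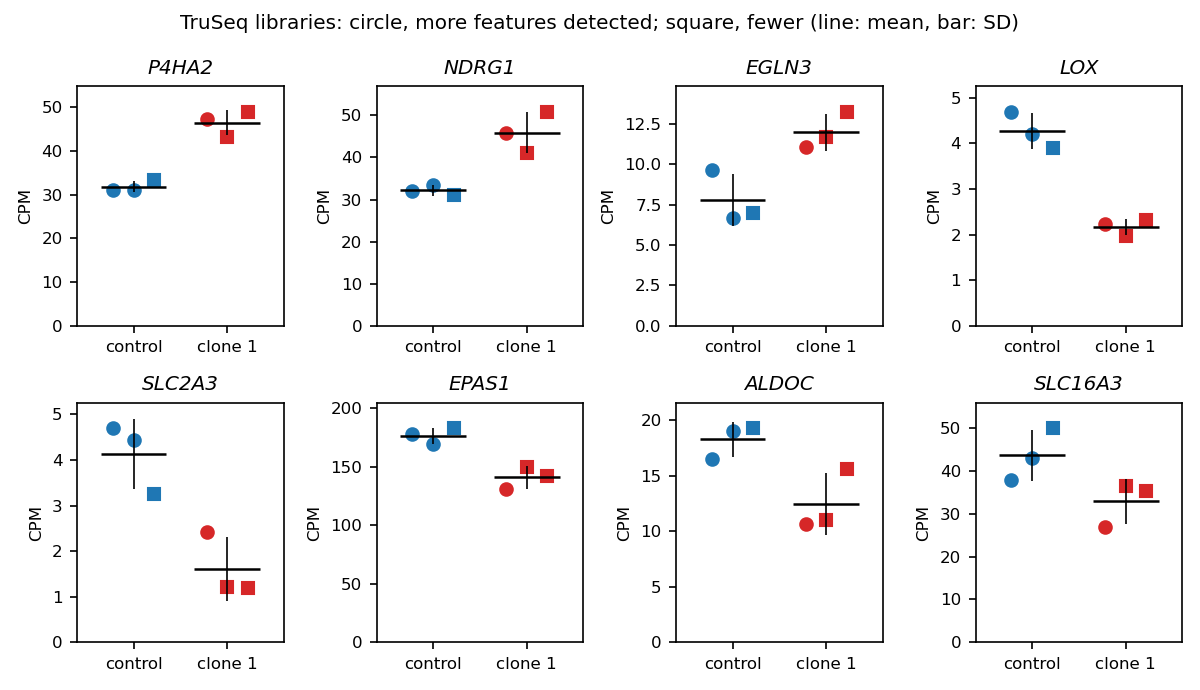
CPM of 8 genes in each TruSeq library (points), with the group mean (line) and SD (bar), control in blue and clone 1 in red. For P4HA2, NDRG1, EGLN3, LOX, SLC2A3, EPAS1, ALDOC and SLC16A3 no clone 1 point lies within the control range, and circles and squares mark the libraries with more and with fewer features detected.

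All 4 genes of glucose uptake and trapping had a negative fitted change in clone 1, and 1 passed. SLC2A3 (GLUT3, chromosome 12, 7919230 to 7936275, minus strand), a high-affinity glucose transporter, was at 4.69, 4.44 and 3.25 CPM in control and 2.41, 1.22 and 1.19 CPM in clone 1. These levels rest on 55 to 59 counts a library in control and 18 to 26 in clone 1. The fall was 1.39 on the log2 scale (SE 0.318, edgeR adjusted p = 0.0375). It was not called without control replicate 1 (0.113), control replicate 2 (0.162), clone 1 replicate 2 (0.153) or clone 1 replicate 3 (0.158). SLC2A14, a near-identical copy, was at 2.99 CPM in control and 2.04 CPM in clone 1 (log2 difference -0.54, adjusted p = 0.29), and reads may be split between the copies.

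SLC2A1 (GLUT1), a widely expressed glucose transporter, was at 92.3 to 123 CPM in control and 87.2 to 116 CPM in clone 1, a log2 difference of -0.03 (95% interval -0.33 to 0.28). HK1, the hexokinase that traps glucose as its phosphate, was at 442, 431 and 470 CPM in control and 376, 412 and 409 CPM in clone 1. The groups did not overlap, with a log2 difference of -0.17 (SE 0.070, edgeR adjusted p = 0.22). HK2, the hypoxia-induced hexokinase, was at 43.2 to 46.6 CPM in control and 33.1 to 41.7 CPM in clone 1, again without overlap and without passing. HK2 was 9.20% to 10.0% of the per-length sum of both hexokinases in control and 8.38% to 9.58% in clone 1.

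None of the 8 genes of upper glycolysis and its regulators passed in edgeR with the group as the only term, and 1 had an unadjusted p under 0.05. ALDOC, the aldolase isozyme best known from brain, was at 16.5, 19.1 and 19.3 CPM in control and 10.7, 11.0 and 15.6 CPM in clone 1. All clone 1 values lay below control, with a log2 difference of -0.55 (SE 0.159, edgeR adjusted p = 0.0824). DESeq2 called it (0.0409), as did the fits without the low-count filter (0.0131) and without clone 1 replicate 3 (0.0437). ALDOC was 2.61% to 3.12% of the per-length sum of both aldolases in control and 1.66% to 2.32% in clone 1. ALDOA, the aldolase that made up the rest, was at 694 to 963 CPM in control and 675 to 882 CPM in clone 1. PFKP, the platelet-type phosphofructokinase, was at 259 to 322 CPM in control and 213 to 268 CPM in clone 1, TPI1, which interconverts the triose phosphates, at 1465 to 1958 CPM and 1303 to 1617 CPM, and both overlapped. Fitted log2 differences of the other members of the block were 0.17 for GPI, 0.05 for PFKL, -0.18 for PFKFB3 and 0.05 for PFKFB4, none of which passed.

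Of the 6 genes of lower glycolysis none passed in edgeR or DESeq2 with the group as the only term, and 0 had an unadjusted p under 0.05. GAPDH, which forms the first high-energy phosphate of the pathway, was at 7266, 7928 and 9083 CPM in control and 6156, 7471 and 7450 CPM in clone 1. The ranges overlapped, with a log2 difference of -0.20 (95% interval -0.45 to 0.04). ENO1, the main enolase, was at 1679 to 2216 CPM and 1734 to 2275 CPM, and ENO2, the neuronal enolase, at 143 to 160 CPM and 142 to 159 CPM. PGK1, PGAM1 and PKM, the kinase, mutase and pyruvate kinase of the block, had log2 differences of 0.03, 0.20 and -0.03. GAPDH has 62 and PGAM1 13 pseudogenes named after it in GENCODE release 29, so their counts depend on how reads with several matches were treated, which is not given in the sources used here.

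At the end of the pathway, LDHA, which turns pyruvate into lactate, was at 850, 850 and 818 CPM in control and 762, 740 and 773 CPM in clone 1. SLC16A3 (MCT4), the lactate exporter of glycolytic cells, was at 37.9, 42.9 and 49.9 CPM in control and 26.8, 36.5 and 35.3 CPM in clone 1. Both were lower in each clone 1 library than in each control library. Neither passed in edgeR with the group as the only term. Log2 differences were -0.15 (SE 0.064, adjusted p = 0.241) and -0.40 (SE 0.139, adjusted p = 0.14). PDK1, the kinase that restrains pyruvate dehydrogenase, was at 18.5 to 21.8 CPM and 20.8 to 24.2 CPM.

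Divided by exon length, the TruSeq control levels were ordered GAPDH (2715 ± 308 CPM per kb, SD, n = 3), TPI1 (633 ± 91.3), ENO1 (363 ± 52.2), ALDOA (208 ± 34.9), PGK1 (157 ± 13.6), LDHA (135 ± 2.92), PGAM1 (102 ± 9.33), HIF1A (94.98 ± 7.06), PKM (78.2 ± 5.03) and HK1 (71.1 ± 3.15). The ranges of neighbours in this order did not overlap from GAPDH to LDHA and PGAM1, while PGAM1 with HIF1A and PKM with HK1 overlapped. The lowest of the 37 were ANKRD37 (0.201 CPM per kb), CA12 (0.567), SLC2A3 (0.67), LOX (0.769) and CA9 (1.05). Of the 5 called genes, EPAS1 ranked 18th at 24.2 CPM per kb, P4HA2 27th and NDRG1 28th. The calls with the group as the only term thus lay in the middle and lower part of the order, without the abundant enzymes. With the set of libraries by features detected as a covariate, GAPDH, TPI1, HK1 and PFKP were also called, on the lower side. Exon length was the union over annotated transcripts, which understates the level of genes with long, rarely used exons.

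**Figure D3:**
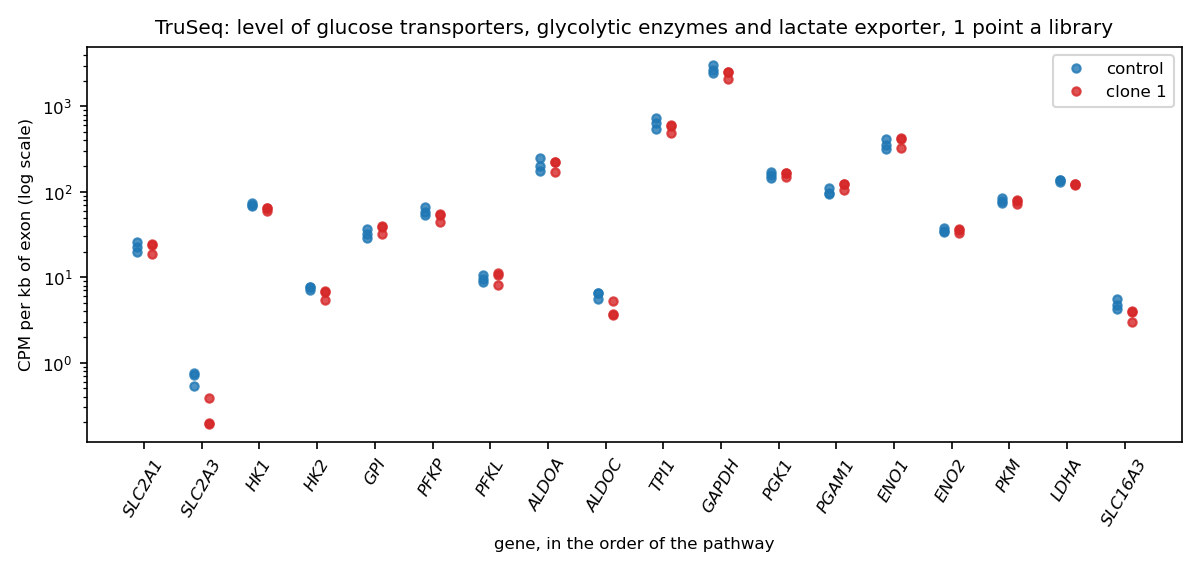
CPM per kb of exon on a log scale for the glucose transporters, glycolytic enzymes and lactate exporter in the order of the pathway, 1 point a TruSeq library, control in blue and clone 1 in red. GAPDH is highest and SLC2A3 lowest, and the shift at SLC2A3 is larger than at any of the other 17 genes drawn.

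The differences in clone 1 were also taken within the sets of libraries that differ in features detected, and over all 6 libraries with the set as a covariate. The set with more features held control replicates 1 and 2 and clone 1 replicate 1, and the set with fewer held control replicate 3 and clone 1 replicates 2 and 3. Within a set 1 arm is a lone library, assumed to vary like the others, and the spread comes from 1 pair, so these differences are given as values. P4HA2 (log2 0.60 in the set with more features and 0.46 in the other) and NDRG1 (0.48 and 0.56) were on the higher side in both. EPAS1 (-0.41 and -0.33), LOX (-1.0 and -0.87) and SLC2A3 (-0.93 and -1.43) were on the lower side in both. Tests within the sets called 10 of 36 genes in the first and 11 of 37 in the second, where 6.39% of 19204 and 13.8% of 18265 genes were called.

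With the set as a covariate, edgeR called 18 of the 37 genes, where 21.8% of all 17371 genes were called. These held the 5 genes called with the group as the only term. The others on the higher side were EGLN3, P4HA1 and BNIP3L. Those on the lower side were SLC16A3 (adjusted p = 8.48e-06), PFKP (3.29e-05), GAPDH (0.000203), TPI1 (0.000492), ALDOC (0.000559), HK1, ADM, HK2, EGLN1 and PFKFB3. Within the sets SLC16A3 was at -0.60 and -0.48, ALDOC at -0.75 and -0.54, PFKP at -0.34 and -0.28, GAPDH at -0.31 and -0.29 and TPI1 at -0.29 and -0.30. The share of mitochondrial transcripts differed between the sets as well, at 0.637% to 0.891% in the set with more features and 0.302% to 0.37% in the other, and its part in these values was not tested.

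**Figure D4:**
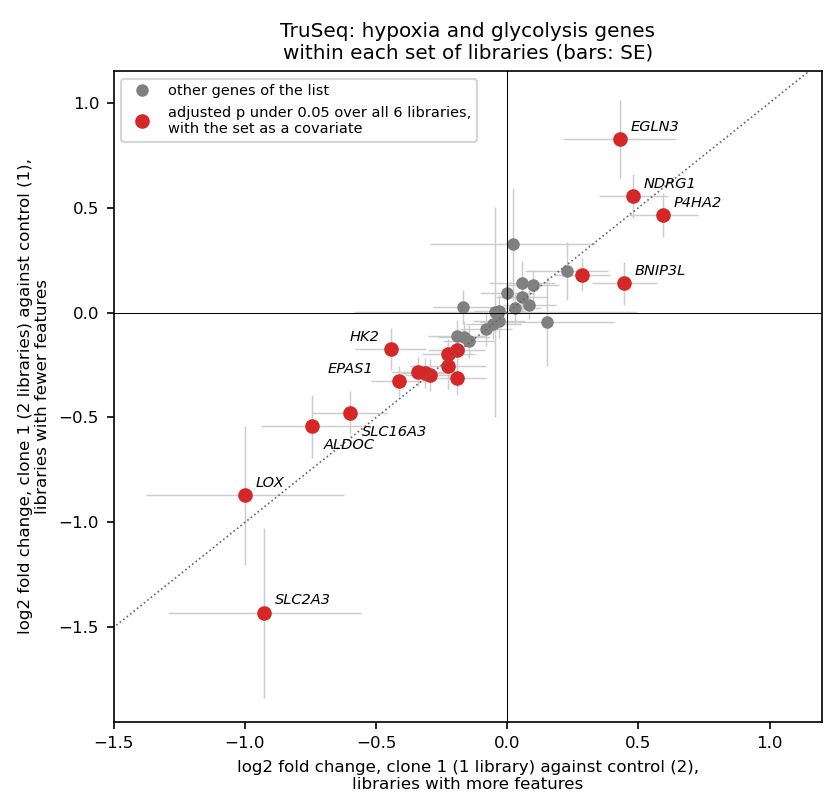
Fitted log2 fold change of clone 1 against control in the libraries with more features (horizontal) and with fewer (vertical), which share no library, for 36 genes; bars are SE and the dotted line marks equality. The 18 genes in red were called over all 6 libraries with the set as a covariate, with P4HA2 and NDRG1 in the upper right and SLC2A3, LOX, ALDOC, SLC16A3 and EPAS1 in the lower left.

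Other genes of the same pathways were taken from lists drawn up beside the 37. Of 32 other hypoxia genes tested in TruSeq, 1 was higher and 1 lower, with a median log2 difference of 0.09. This share is that of all genes called, 6.27%, and 9 of the 32 had an unadjusted p under 0.05. STC1, a secreted glycoprotein that acts on calcium and phosphate handling, rose from 21.9 to 33.7 CPM (log2 0.62, SE 0.125, edgeR adjusted p = 0.023). GBE1, the glycogen branching enzyme, fell from 85.9 to 66.8 CPM (log2 -0.36, SE 0.067, edgeR adjusted p = 0.0169). Of 18 other genes of glycolysis and pyruvate metabolism none was called in edgeR and 8 had an unadjusted p under 0.05, as did 3538 of all 17371 genes, with a median log2 difference of -0.03. In PLATE-seq none of 23 other hypoxia genes and of 13 other glycolysis genes passed in edgeR in any comparison with control, where 1 or 2 of the first list and 0 to 3 of the second had an unadjusted p under 0.05. Of all 8595 genes tested there, 544 to 1026 did.

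In PLATE-seq edgeR called none of the 29 genes that could be tested in any comparison. The 8 untested genes, CA9, ANKRD37, LOX, SLC2A3, HK2, PFKFB3, PFKFB4 and PGAM1, had too few counts, so the falls of LOX and SLC2A3 could not be followed in this assay. Of the genes tested, 3 in clone 1, 2 in clone 2, 5 in clone 3, 3 in the mean of the clones and 1 with siRNA had an unadjusted p under 0.05 in edgeR. DESeq2 called none in these 5 comparisons, but it gave some genes no adjusted p and so could not call them. Among these were P4HA2 in clones 1, 2 and 3 and EGLN1 in clone 1. ADM in clone 3 and with siRNA, NDRG1 with siRNA, and P4HA1, P4HA2 and EGLN1 in the mean of the clones were others. Among the other settings, DESeq2 called ADM in the test among the clones, and edgeR without the low-count filter called P4HA2 in clone 1 and ADM and LDHA among the clones. The share of all 8595 genes called was 0.00% in clone 1, 0.0349% in clone 2, 0.663% in clone 3, 0.198% in the mean of the clones and 0.00% with siRNA. At an unadjusted p under 0.05 in edgeR were 704 of the 8595 in clone 1, 830 in clone 2 and 1026 in clone 3. The mean of the clones had 869 and siRNA 544. The libraries of a clone did not overlap the control pair in 15 of the 29 genes in clone 1 (6 higher, 9 lower), 12 in clone 2 (4 higher, 8 lower) and 12 in clone 3 (9 higher, 3 lower), and the siRNA pairs did not in 12 (7 higher, 5 lower). With only 2 libraries a group this held for 39.2%, 38.3%, 42.0% and 37.4% of all genes tested. The 3 clones share their 2 control libraries, which were the shallowest of the assay, and the siRNA pair shares no library with them.

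EPAS1 was at 309 and 486 CPM in the PLATE-seq control, 306 and 273 in clone 1, 239 and 334 in clone 2, and 361 and 302 in clone 3. The siRNA control had 393 and 570 CPM and siRNA SMARCAL1 376 and 333. The means were below the matching control in all 4 comparisons, but the control pairs were wide. Log2 differences were -0.46 (95% interval -1.03 to 0.12) in clone 1, -0.47 (-1.05 to 0.11) in clone 2, -0.26 (-0.83 to 0.31) in clone 3 and -0.44 (-1.01 to 0.13) with siRNA, and each interval holds both 0 and the TruSeq value. The siRNA value moved to -0.15 when siRNA control replicate 2 was left out.

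P4HA2 had 0 counts in both control libraries, and 18 and 27 in clone 1, 2 and 6 in clone 2, and 9 and 27 in clone 3. Against a floor of 3 counts over the control pair, 1.77 CPM, it was 7.17-fold higher in clone 1, 2.41-fold in clone 2 and 3.72-fold in clone 3. The clone counts, 8 over both libraries in clone 2, were taken without their own error, so these folds are not lower bounds. None of these passed in edgeR (adjusted p = 0.169, 0.354 and 0.147), and clone 1 did without the low-count filter (0.0326). The siRNA control, also made from cells with SMARCAL1, had 5 and 17 counts (4.38 and 11.9 CPM), within the range of the clones. Set against it, the log2 differences of clones 2 and 3 turned to -0.99 and -0.42. With siRNA SMARCAL1, P4HA2 was at 20.4 and 16.8 CPM, above both siRNA control values (log2 1.16, 95% interval -0.52 to 2.85, edgeR adjusted p = 0.889).

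P4HA1, its sister subunit, was at 11.1 and 13.6 CPM in the control and 2.08 to 6.15 CPM in the 6 clone libraries. Every clone library lay below both control libraries, with a log2 difference of -1.75 for the mean of the clones (SE 0.818, edgeR adjusted p = 0.472), from only 2 to 11 counts a library. The siRNA control was at 3.51 and 2.11 CPM, and against it the value turned to 0.37. In the TruSeq libraries P4HA1 lay at 94.0 to 125 CPM and on the higher side in clone 1 (log2 0.18, 95% interval -0.01 to 0.38).

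ADM was the gene that differed most among the clones. It was at 8.85 and 17.4 CPM in the control, 12.5 and 12 in clone 1, 40.6 and 22.5 in clone 2, and 3.11 and 4.55 in clone 3, from 7 to 39 counts a library. Clone 2 was above and clone 3 below both control values, with log2 differences of 1.27 (SE 0.636, edgeR adjusted p = 0.531) and -1.72 (SE 0.676, adjusted p = 0.292). The test of a difference among the 3 clones gave an adjusted p of 0.0533 for ADM in edgeR, and 0.00903 in DESeq2. With siRNA, ADM went from 21.0 and 14.7 CPM to 2.72 and 2.97 CPM, or 24 and 21 counts to 4 and 3. These groups were well apart (log2 -2.62, SE 0.737), yet edgeR gave an adjusted p of 0.378, with 0.00% of genes called. The difference between the mean clone effect and the siRNA effect was 2.44 (SE 0.923, adjusted p = 0.526).

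NDRG1, called in TruSeq, was at 32.1 and 32.2 CPM in the PLATE-seq control and 20.2 to 40.9 CPM in the clones. The clone ranges spanned the control, and the log2 difference in clone 1 was -0.12 (95% interval -1.11 to 0.88). With siRNA it went from 36.8 and 60.4 to 98.0 and 43.5 CPM, and its log2 difference of 0.55 turned to -0.17 without siRNA SMARCAL1 replicate 1. VEGFA was at 15.5 and 19.9 CPM in the control and 25.0 and 44.0 CPM in clone 2 (log2 0.97, SE 0.628, edgeR adjusted p = 0.663). EGLN1 was at 15.5 and 28.5 CPM in the control and 10.7 and 4.37 CPM in clone 1 (log2 -1.54, SE 0.687, edgeR adjusted p = 0.554), while the siRNA control was at 4.38 and 16.1 CPM, from the level of the lower clone 1 library into the range of the control.

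**Figure D5:**
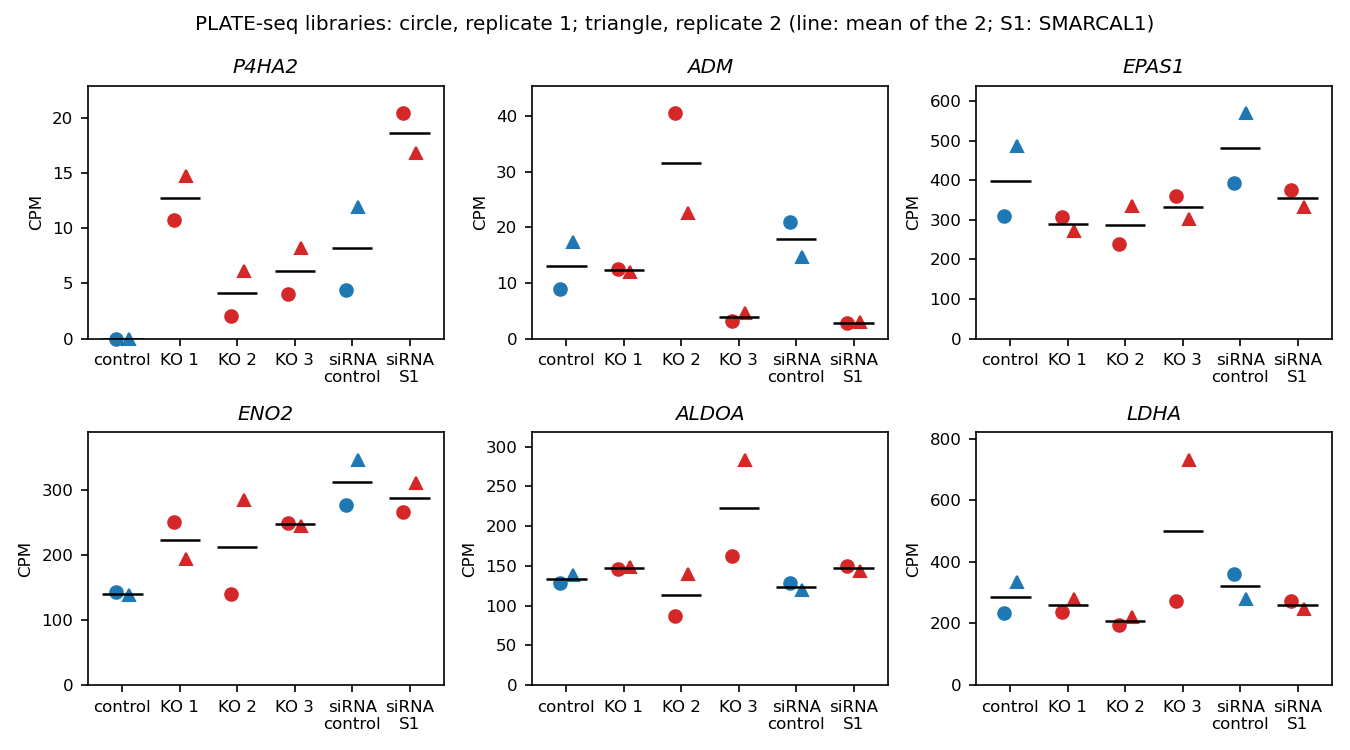
CPM of 6 genes in each PLATE-seq library (points; circle, replicate 1; triangle, replicate 2) with the mean of each pair, controls in blue and the groups labelled knockout or siRNA SMARCAL1 in red (KO, knockout clone; S1, SMARCAL1). P4HA2 is at 0 in both control libraries, ADM is lowest in clone 3 and with siRNA SMARCAL1, and clone 3 replicate 2 stands above all others for ALDOA and LDHA.

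Among the glycolytic enzymes in PLATE-seq, ENO2 was at 143 and 138 CPM in the control, 251 and 193 in clone 1, 140 and 284 in clone 2, and 249 and 245 in clone 3. Clones 1 and 3 lay above the control (log2 0.66, SE 0.303, edgeR adjusted p = 0.564, and 0.82, SE 0.302, adjusted p = 0.254). The siRNA control was higher still, at 276 and 346 CPM, and against it the differences turned to -0.49 and -0.33. In TruSeq the log2 difference of ENO2 in clone 1 was -0.00 (95% interval -0.17 to 0.16). PFKP was at 16.6 and 26.1 CPM in the control and 29.1 to 50.1 CPM in the 6 clone libraries, all of them higher (mean of the clones, log2 0.81, SE 0.40, edgeR adjusted p = 0.508), and at 49.97 and 35.8 CPM in the siRNA control, against which it was -0.20. In the TruSeq libraries PFKP of clone 1 was on the lower side, at a log2 difference of -0.21 (95% interval -0.46 to 0.04).

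In clone 3, LDHA and ALDOA rested on 1 library. LDHA was at 233 and 335 CPM in the control and 271 and 732 CPM in clone 3, and ALDOA at 128 and 139 CPM and 163 and 284 CPM. Replicate 2 of clone 3, the deepest PLATE-seq library, was far above replicate 1 for both, and its mitochondrial share was 24.6% against 32.7%. The log2 differences were 0.82 (SE 0.333, edgeR adjusted p = 0.313) for LDHA and 0.74 (SE 0.309, adjusted p = 0.332) for ALDOA. Without replicate 2 they were -0.06 and 0.29, and without replicate 1 LDHA was called at 1.37 (adjusted p = 0.0127). Clones 1 and 2 gave LDHA differences of -0.13 and -0.45, and the test among the clones gave an adjusted p of 0.0952 for LDHA in edgeR, with 0.710% of all genes called. In that test ADM, HK1, ALDOA, TPI1 and LDHA had an unadjusted p under 0.05, as did 974 of all 8595 genes.

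GAPDH, the most abundant of the enzymes, was at 6306 and 5045 CPM in the PLATE-seq control, 4631 and 3432 CPM in clone 2 and 4503 and 4287 CPM in clone 1. These clones lay below the control, with log2 differences of -0.49 (SE 0.216, edgeR adjusted p = 0.457) and -0.37 (95% interval -0.81 to 0.08). The siRNA control, at 4256 and 4185 CPM, was as low as these clones, and against it the clone 2 value was -0.07. Clone 3, at 4508 and 6356 CPM, overlapped the control (log2 -0.06, 95% interval -0.51 to 0.38). With siRNA SMARCAL1, GAPDH was at 4740 and 4549 CPM, above both siRNA control libraries (log2 0.14, 95% interval -0.31 to 0.58). HK1 was at 85.0 and 84.9 CPM in the siRNA control and 54.4 and 67.2 CPM with siRNA SMARCAL1, without overlap (log2 -0.49, SE 0.327, edgeR adjusted p = 0.878). In clone 3 HK1 lay on the other side of its control, at 89.8 and 127 CPM against 63.0 and 76.9 CPM (log2 0.63, 95% interval -0.03 to 1.30). LOXL2 was at 34.3 and 33.5 CPM in the control and 48.7 and 62.3 CPM in clone 1 (log2 0.71, SE 0.450, edgeR adjusted p = 0.733).

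The remaining genes tested in PLATE-seq, among them HIF1A, SLC2A1, PGK1, ENO1 and PKM, had an unadjusted p above 0.05 in each comparison with control. HIF1A lay at 7.44 to 35.8 CPM over the 12 libraries and SLC2A1 at 12.4 to 27.0 CPM, and for both the 2 control libraries spanned most of the range of the clones. The difference between the mean clone effect and the siRNA effect was called for none of the 29 genes in edgeR, which called 0.00% of all genes. DESeq2 called none either, but gave no adjusted p for P4HA1 and P4HA2 and so could not call them. At an unadjusted p under 0.05 in edgeR were 4 of the 29 genes and 667 of all 8595.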

How the data were processed

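Gene-level RNA was analysed in 18 libraries of 8 groups. The deposited values are raw counts per gene symbol, which the authors made with STAR and HTSeq on hg38, per the submitters' processing notes; versions, annotation and strand setting are not given in the sources used here. Titles and columns give the line as MDA-MB-436, but in PLATE-seq the line tags carry a different number on every sample; MDA-MB-436 was used for all. The 92 spike-in entries of the PLATE-seq table, at most 0.0534% of a library, were left out. TruSeq replicates and PLATE-seq replicates differed beyond counting noise (chi-square per degree of freedom 5.66 to 33.9).

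Each assay was fitted alone with edgeR 4.0.16 in R 4.3.3 (filterByExpr, TMM, quasi-likelihood F test, group as the only term, two-sided p adjusted by Benjamini-Hochberg over all genes, threshold 0.05). This left 17371 genes in TruSeq (4 residual degrees of freedom, biological coefficient of variation 0.123) and 8595 in PLATE-seq (12 libraries in 1 fit, 6 residual degrees of freedom, 0.330). CPM uses TMM library sizes, and SE is the log2 fold change over the square root of F. Floors cover counting error only, and only that of the group with 0 counts. The scripts were tested on simulated counts. Coordinates and exon lengths are from GENCODE release 29 on GRCh38. Alternatives were DESeq2 1.42.0, other size factors, no filter, a replicate block, each library left out, only the groups compared, the siRNA control exchanged for the control of the clones, and the set of libraries by features detected.

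A fold change with SE and p is given for a gene past the threshold, with an unadjusted p under 0.05, or among the 3 largest changes of a comparison at 5 CPM (TruSeq) or 20 CPM (PLATE-seq) or more; other values stand beside these or as ranges. The 37 genes and all lists were chosen with earlier results of these data known. A marker gene is not reported here and was left out of its list.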

Additional observations from a re-analysis of the deposited data

How the results depend on the processing

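In TruSeq the 5 calls became 11 with a replicate block (4 higher, 7 lower), 18 with the set of libraries as a covariate, and 10 and 11 within the sets with more and with fewer features; leaving out 1 library gave 0 to 4 calls. Over all genes the called number ran from 199 to 1145 with a library left out, against 1089, and was 2387 with the replicate block, 1306 with DESeq2 and 3793 with the covariate. P4HA2, NDRG1, EPAS1, LOX and SLC2A3 kept their sign under all 13 alternatives. Pairing by replicate number was not assumed, since same-numbered TruSeq deviations correlated at 0.596, -0.25 and 0.447; the replicate block changed no PLATE-seq call of these genes. In PLATE-seq no filter gave 1 call in clone 1 (P4HA2) and 2 among the clones (ADM and LDHA), DESeq2 gave 1 among the clones (ADM), and leaving out clone 3 replicate 1 gave 1 in clone 3 and 1 among the clones (LDHA), where leave-one-out values otherwise were 0.

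Set against the siRNA control, these log2 differences changed sign: in clone 1 PFKP (-0.285) and ENO2 (-0.488); in clone 2 EGLN1 (0.178) and P4HA2 (-0.991); in clone 3 P4HA2 (-0.417), PFKP (-0.0991) and ENO2 (-0.335); and in the mean of the clones EGLN1 (0.0757), P4HA1 (0.366), P4HA2 (-0.264), PFKP (-0.202) and ENO2 (-0.458). With 1 library left out, LDHA in clone 3 ran from -0.061 (without clone 3 replicate 2) to 1.37 (without clone 3 replicate 1), and NDRG1 with siRNA from -0.167 (without siRNA SMARCAL1 replicate 1) to 1.01 (without siRNA SMARCAL1 replicate 2). The cause was not tested. DESeq2 gave no adjusted p for 12 of the values named, all of PLATE-seq, and so could not call them. At the depth of PLATE-seq, 3 counts were worth 0.978 to 3.71 CPM, and 8 of the 37 genes were untested there.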

Other observations

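Levels of some of these genes stood apart between the assays, which were counted and normalised apart and so are set side by side only. PGAM1, the phosphoglycerate mutase, was at 243 to 318 CPM in the 6 TruSeq libraries and had 0 counts in 7 of 12 PLATE-seq libraries and at most 14 in the others. HIF1A lay at 454 to 527 CPM in TruSeq and at 7.44 to 35.8 CPM in PLATE-seq. BNIP3, with 39 pseudogenes named after it, lay at 205 to 233 CPM and at 7.28 to 43.1 CPM. In the other direction, PKM was at 616 to 717 CPM in TruSeq and at 3286 to 5557 CPM in PLATE-seq, and EPAS1 at 131 to 183 CPM and 239 to 570 CPM. GAPDH and ENO1 were among the most abundant of the list in both assays.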
